A study of Rattus norvegicus with 9 samples.

Results

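Sulfide oxidation and cysteine breakdown to taurine were followed through 9 genes (Sqor, Ethe1, Tst, Mpst, Suox, Cdo1, Csad, Gadl1 and Slc6a6) in the gastrocnemius, which lies in the calf and mixes fast and slow fibres. Members were taken by gene symbol, as every probe set whose single symbol in the platform annotation is one of these. This gave 10 probe sets, 2 for Slc6a6 and 1 for each of the other 8 genes, out of 14217 genes named on the array. The set was chosen on readout, picked from the comparison of dexamethasone plus testosterone with dexamethasone alone, in which Sqor was lower and Gadl1 higher. Values of that comparison are therefore given as a description, with no test. The other comparisons share arrays with it, so for Sqor and Gadl1 they are not independent of the choice.

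Male Wistar rats of 250 g were infused from implanted Alzet pumps for 7 days, and total RNA of the muscle was hybridised to Affymetrix rat expression arrays, 1 array per animal and 3 animals per group. Control rats received propylene glycol, the vehicle of all 3 groups. The second group received the synthetic glucocorticoid dexamethasone at 0.7 mg/kg/day. The third received the same dexamethasone together with testosterone, an androgen, whose dose the sample labels put at 28 mg/kg/day and the series design at 20 mg/kg/day. No age is stated in the labels. They also mention no removal of the adrenals or testes in any group.

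Hydrogen sulfide is made in cells from cysteine and homocysteine and is removed in mitochondria. Sqor oxidises it, handing the electrons to ubiquinone, Ethe1 oxidises the resulting persulfide to sulfite, Tst (rhodanese) exchanges sulfur between persulfide, sulfite and thiosulfate, and Suox oxidises sulfite to sulfate. Cysteine itself is oxidised by Cdo1 and decarboxylated by Csad on the way to taurine, which Slc6a6 carries into the cell. Gadl1, a relative of Csad, decarboxylates aspartate to beta-alanine, the precursor of carnosine, and can also act on the oxidised cysteine. Taurine and carnosine are both abundant in skeletal muscle.

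Median deposited signals were 25.8 to 132.1 per array. Deposited scaling and the 3' to 5' signal ratio of Gapdh divide the arrays into 3 sets, called batches here. The sample titles name no batch. Batch A holds 4 arrays that had not been brought to the common trimmed mean of 500 (vehicle replicates 1 and 3, and replicate 1 of both treated groups). Batch B holds replicate 2 of each group. Batch C holds replicate 3 of both treated groups, in which the 3' signal of Gapdh was 4.94 and 6.22 times the 5' signal, against 1.06 to 1.17 times in the other 7 arrays. Batch C has no vehicle array. Of 12 markers of skeletal muscle fibres 11 were measured, and their summed signal was 275175 to 297827 in every array. That of 9 slow fibre markers was 105385 to 130842 with vehicle and 131434 to 156666 with dexamethasone, but 5396, 106172 and 51385 in replicates 1, 2 and 3 of the combined treatment.

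Promoter sequence is shown for the members that moved most in opposite directions, Sqor and Gadl1. The windows run from 250 bases before to 50 after the start of the gene, on the plus strand, and come from RefSeq on the GRCr8 build. Sqor lies at chr3:130299981-130300280, and the first of 3 windows listed for Gadl1 at chr8:124483486-124483785. Capitals mark AGAACA, 1 arm of the palindrome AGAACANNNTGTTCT that glucocorticoid and androgen receptors recognise.
Sqor: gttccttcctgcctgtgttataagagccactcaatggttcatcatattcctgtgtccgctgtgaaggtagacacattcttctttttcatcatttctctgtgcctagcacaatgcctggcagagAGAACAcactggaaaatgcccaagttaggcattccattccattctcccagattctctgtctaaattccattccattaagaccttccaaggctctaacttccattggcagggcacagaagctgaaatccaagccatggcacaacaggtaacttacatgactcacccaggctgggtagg
Gadl1: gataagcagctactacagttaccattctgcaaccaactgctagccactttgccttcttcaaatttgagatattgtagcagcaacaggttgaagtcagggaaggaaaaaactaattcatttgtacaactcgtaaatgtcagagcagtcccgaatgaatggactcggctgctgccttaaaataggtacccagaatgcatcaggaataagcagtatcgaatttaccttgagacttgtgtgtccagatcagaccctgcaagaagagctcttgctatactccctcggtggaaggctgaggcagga
Windows were found for 6 of the 9 members. On either strand, AGAACA occurs once in that of Sqor, beginning 127 bases before the start, and 3 times in that of Suox. No window of Gadl1, Slc6a6, Mpst or Csad holds it. Of all 33469 windows of this length 20.7% do, and 0.0149% hold the whole palindrome, which was in no member's window. These are matches of letters in a short window, not sites of binding.

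**Figure D1:**
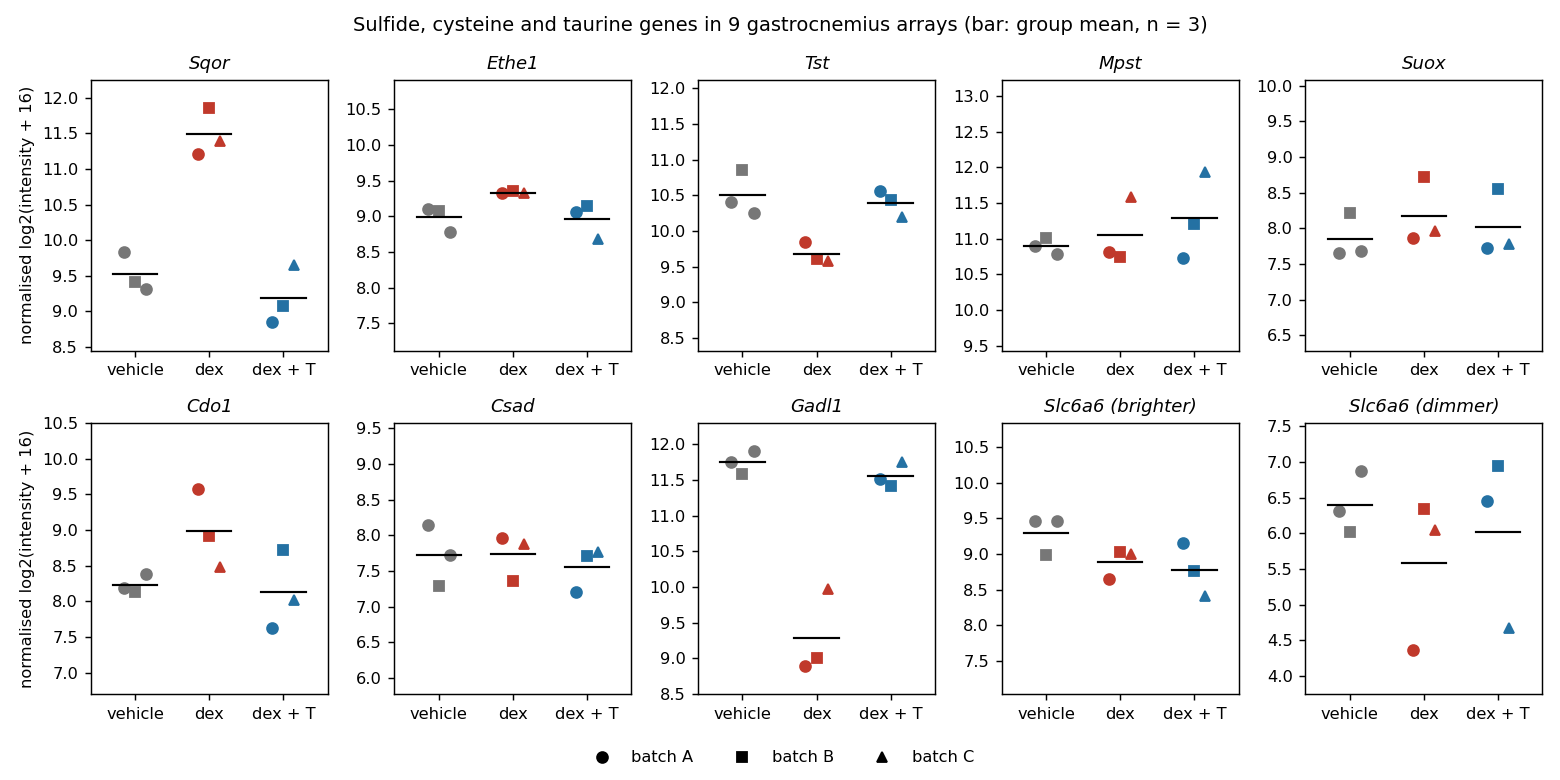
Normalised log2 signal of the 10 probe sets in the 9 arrays, by group (3 arrays each; dex is dexamethasone, T testosterone), with bars at the group means and symbols for the batches. Each panel spans the same number of log2 units. Sqor with dexamethasone lies at 11.21 to 11.85, above every other array, and Gadl1 at 8.89 to 9.97, below every other array.

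Dexamethasone raised Sqor and lowered Gadl1, and no other member passed the test. Of the 10 probe sets 1 rose, 1 fell and 8 did not pass (limma, Benjamini-Hochberg adjusted p under 0.05 over all 18625 probe sets tested). Over all probe sets 1.05% passed, 0.569% higher and 0.483% lower than vehicle. As the choice of the set rests on Sqor and Gadl1, the count of members that passed is given as a description. By size, Sqor stood 26th among the 77 genes that rose, and Gadl1 stood 12th among the 59 that fell. Values below are log2(intensity + 16) after quantile normalization, a scale that understates changes of dim probe sets.

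Sqor, the mitochondrial enzyme that opens sulfide oxidation, was read by probe set 1389142_at. Its level was 9.84, 9.42 and 9.32 in vehicle replicates 1, 2 and 3, and 11.21, 11.85 and 11.39 in the dexamethasone replicates. All 3 treated muscles thus stood more than a whole log2 unit above the highest control. The mean rose by 1.95 ± 0.27 log2 units (SE, n = 3 per group, limma adjusted p = 0.0213), which is 3.87-fold. The 95% interval of the log2 difference was 1.34 to 2.57. Arrays of batch A alone gave 1.63 and those of batch B 2.42. In batch B, where the authors' scaling was common, the deposited intensity was 1126.7 with vehicle and 6125.6 with dexamethasone.

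Gadl1, the decarboxylase that makes beta-alanine, moved the other way by a larger amount on probe set 1397855_at. Control levels were 11.75, 11.59 and 11.91, and levels with dexamethasone were 8.89, 9 and 9.97. The groups did not overlap, and replicate 3 of batch C was the least lowered of the treated muscles. Its mean fell by 2.46 on the log2 scale (SE 0.29, n = 3 per group, limma adjusted p = 0.0166), which is 5.5-fold. The 95% interval of the log2 difference was -3.11 to -1.81. Arrays of batch A alone gave -2.94 and those of batch B -2.59. Deposited intensities in batch B were 5023.9 with vehicle and 850.6 with dexamethasone.

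**Figure D2:**
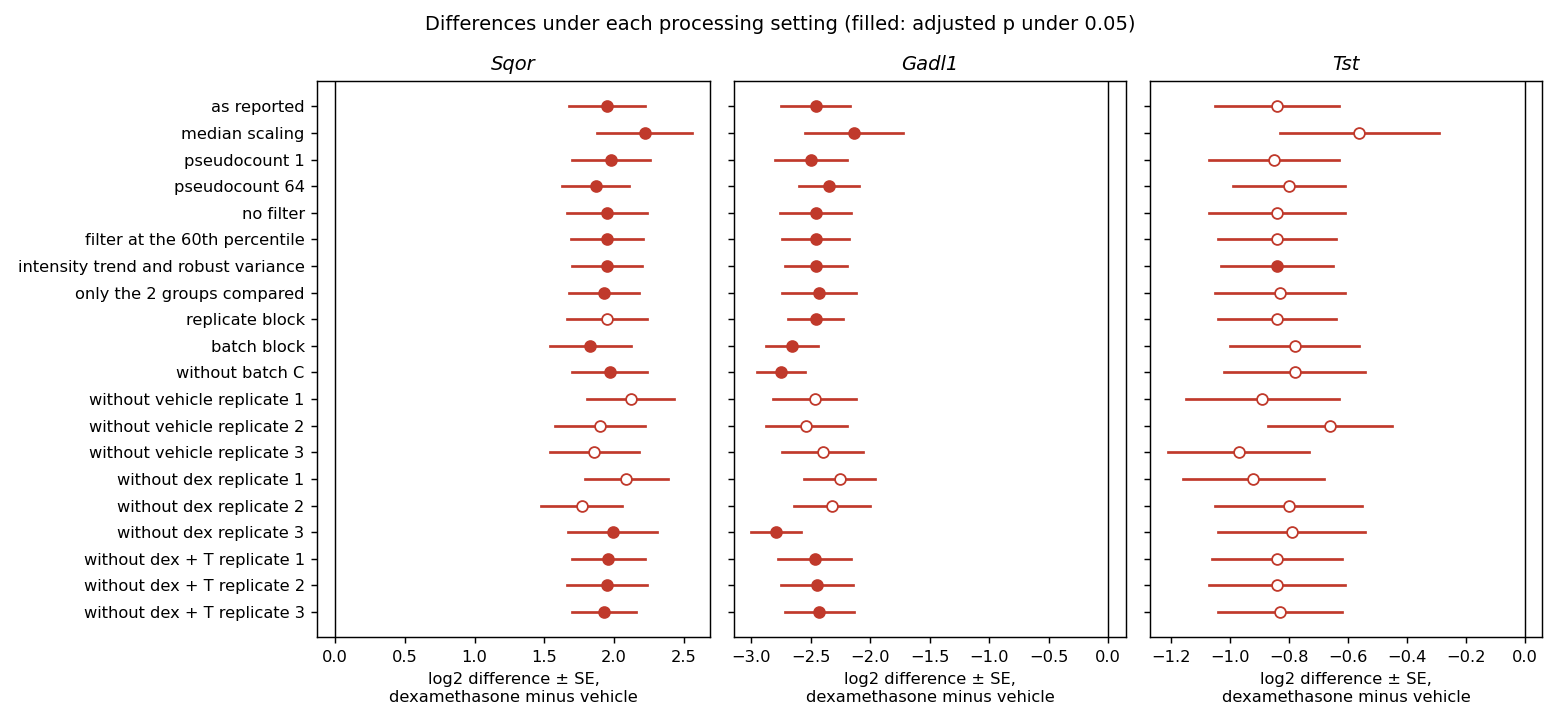
Log2 difference ± SE between dexamethasone and vehicle for Sqor, Gadl1 and Tst as reported and under 19 other settings, with filled points where the adjusted p is under 0.05. The sign is the same throughout: Sqor lies between 1.77 and 2.22, Gadl1 between -2.79 and -2.14 and Tst between -0.97 and -0.56.

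Under 19 alternative settings Sqor passed in 13 and Gadl1 in 14. Neither passed without vehicle replicate 1, 2 or 3, or without dexamethasone replicate 1 or 2. In those fits the differences were 1.77 to 2.12 for Sqor, with adjusted p of 0.0602 to 0.127, and -2.54 to -2.26 for Gadl1, with adjusted p of 0.0584 to 0.104. With both arrays of batch C left out, both passed. Relative to the 18625 probe sets, whose median difference was 0.01, median scaling in place of quantile normalization shifted that median to 0.13 (from 0.02 to 0.15 for both hormones). It also changed the share of calls that were higher from 54.1% to 69.6%.

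Markers of other cell types were read in the same comparison. The summed signal of 7 adipocyte markers was 6785 to 9947 with dexamethasone and 5283 to 6217 with vehicle; 4 of 7 were above 0 and none passed, and 3 further markers (Cidec, Lep and Retn) were not among the genes tested. All 10 fibroblast markers were below 0, 1 of them past the threshold, with sums of 8582 to 29648 against 33971 to 50929. Of 7 endothelial markers 6 were below 0 and none passed, with sums of 2528 to 2549 against 3260 to 3541. None of the macrophage, smooth muscle and Schwann cell markers passed, and their sums overlapped between the groups. The part of these cell types in the changes of Sqor and Gadl1 was not tested. In bulk tissue, fewer cells of a type and less RNA per cell cannot be told apart. With the combined treatment the fibroblast sum was 39028, 21768 and 20783 in replicates 1, 2 and 3.

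Tst, the rhodanese of the sulfide pathway, had the next lowest p-value of the members and did not pass. Levels on probe set 1370881_at were 10.41, 10.86 and 10.25 with vehicle and 9.84, 9.6 and 9.58 with dexamethasone. Every treated muscle was below every control, with a difference of -0.84 ± 0.21 (SE, n = 3 per group; limma adjusted p = 0.102). Arrays of batch A alone gave -0.5 and those of batch B -1.27. Of the 19 alternatives, 1 put it past the threshold, the fit with robust variances that follow intensity (limma adjusted p = 0.046); over all 19 the adjusted p was 0.046 to 0.429.

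Ethe1, the persulfide dioxygenase that acts after Sqor, showed a small separation. On probe set 1372306_at the controls were at 9.1, 9.08 and 8.78 and the dexamethasone muscles at 9.32, 9.35 and 9.33. These 3 values were the closest together of any member in any group (SD 0.02) and lay above all controls. The difference of 0.35 ± 0.19 (SE, n = 3 per group) did not pass (limma adjusted p = 0.436), and was 0.57 under median scaling.

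Suox, the sulfite oxidase that ends the route at sulfate, overlapped between the groups. Probe set 1370036_at gave 7.65, 8.22 and 7.68 with vehicle and 7.86, 8.72 and 7.96 with dexamethasone. Replicate 2, in batch B, was the highest of each group. The difference was 0.33 ± 0.32 (SE, n = 3 per group; limma adjusted p = 0.671), and ran from 0.06 without dexamethasone replicate 2 to 0.51 without vehicle replicate 2. Mpst, a sulfurtransferase that can release sulfide from a cysteine product, also overlapped. On probe set 1370811_at it stood at 10.9, 11.01 and 10.79 with vehicle and 10.81, 10.75 and 11.58 with dexamethasone, where replicate 3 alone was high. The difference of 0.15 ± 0.33 (SE, n = 3 per group; limma adjusted p = 0.87) turned to -0.18 with batch as a block.

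Cdo1, cysteine dioxygenase, is the entry to taurine synthesis and a gene also known for its level in fat. Control levels on probe set 1367755_at were 8.19, 8.13 and 8.38. With dexamethasone they were 9.57, 8.92 and 8.48, all above the controls but spread over more than a log2 unit. The difference was 0.75 ± 0.34 (SE, n = 3 per group; 95% interval 0 to 1.51, limma adjusted p = 0.326), and 0.46 without dexamethasone replicate 1. The adipocyte markers had their highest sum in dexamethasone replicate 2, at 9947, whereas Cdo1 was highest in replicate 1; their part in its level was not tested.

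Csad, the decarboxylase that follows Cdo1, had nearly equal means. Levels on probe set 1398286_at were 8.14, 7.29 and 7.72 with vehicle and 7.96, 7.36 and 7.88 with dexamethasone. The difference was 0.02 ± 0.28 (SE, n = 3 per group; 95% interval -0.61 to 0.64, limma adjusted p = 0.984), an interval that leaves room for changes of about the size measured for Ethe1 or Suox.

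Slc6a6, the transporter of taurine and beta-alanine, had a brighter and a dimmer probe set. The brighter, 1374531_at, gave 9.46, 8.99 and 9.46 with vehicle and 8.65, 9.03 and 9 with dexamethasone. Vehicle replicate 2 lay within the dexamethasone range, and the difference of -0.41 ± 0.25 (SE, n = 3 per group) did not pass (limma adjusted p = 0.471); it was -0.19 under median scaling. Arrays of batch A alone gave -0.81 and those of batch B 0.04. The dimmer, 1368778_at, had a deposited intensity of 2.5 in dexamethasone replicate 1, against 31.2 and 52.1 in the vehicle arrays of the same batch, and a difference of -0.82 ± 0.65 (SE, n = 3 per group; limma adjusted p = 0.598). Without that array it was -0.2, and with a pseudocount of 1 it was -1.41 and of 64 -0.42.

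Of the 10 probe sets, 5 had dexamethasone arrays that did not overlap the controls, 3 of them higher (Sqor, Ethe1 and Cdo1) and 2 lower (Gadl1 and Tst). Among all probe sets tested the share was 22.9%. The 5 include Sqor and Gadl1, on which the choice of the set rests, and the count is given as a description.

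**Figure D3:**
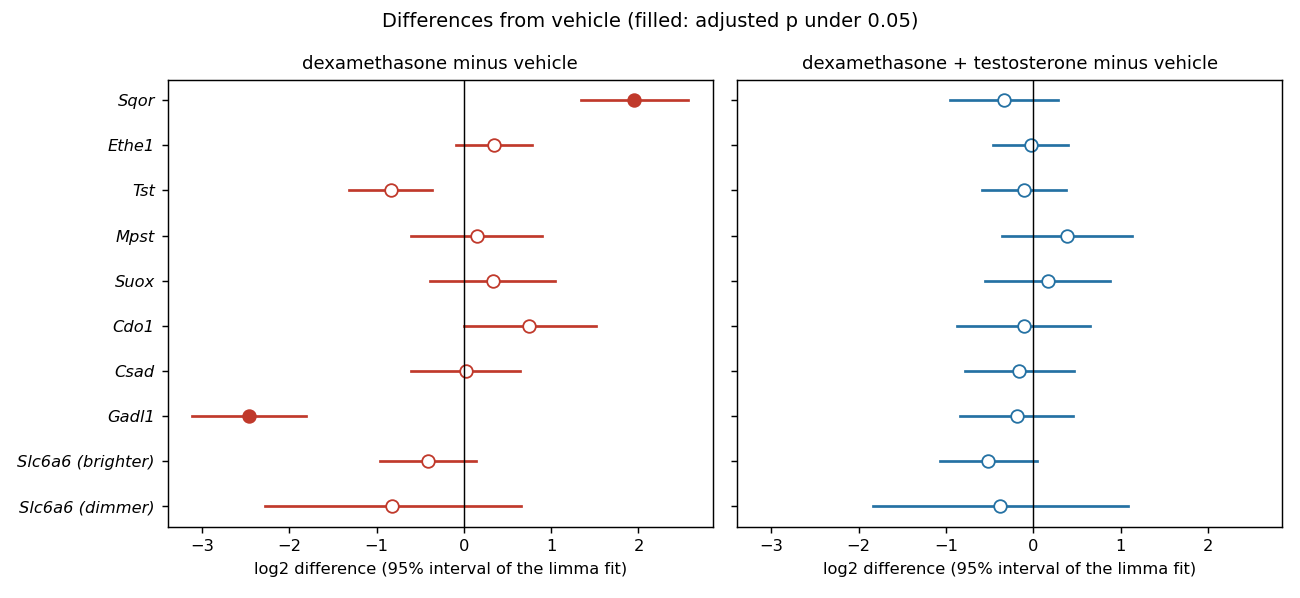
Log2 difference from vehicle with its 95% interval for the 10 probe sets, with dexamethasone (left) and with dexamethasone plus testosterone (right), 3 arrays per group; filled points have an adjusted p under 0.05. With dexamethasone Sqor (1.95) and Gadl1 (-2.46) pass, and with both hormones the differences run from -0.52 to 0.39, where those of Gadl1, Tst, Ethe1 and Cdo1 change sign under median scaling.

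With testosterone added, no member passed against vehicle. The 10 differences ran from -0.52 to 0.39, 0 rose, 0 fell, and every probe set overlapped the controls, while 13.3% of all probe sets did not overlap. Over the whole array 0 of 18625 passed (0%) by limma, as reported and equally with robust variances that follow intensity, and 1139 had an unadjusted p under 0.05; no member was among these. A p that misses the threshold does not show equal levels, so the intervals are given.

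Sqor in the combined treatment was at 8.85, 9.07 and 9.65 in replicates 1, 2 and 3, of which the first pair were below all controls and the last within their range. Its difference from vehicle was -0.34 ± 0.27 (SE, n = 3 per group; 95% interval -0.95 to 0.28, limma adjusted p = 0.898). Median scaling gave -0.08, and leaving out 1 array gave -0.56 (without replicate 3 of the combined treatment) to -0.17 (without its replicate 1). Gadl1 was at 11.51, 11.42 and 11.75, the first pair again below all controls and the last within their range. Its difference was -0.19 ± 0.29 (SE, n = 3 per group; 95% interval -0.84 to 0.46, limma adjusted p = 0.934), and 0.18 under median scaling. Replicates 1 and 3, in which the slow fibre markers were low, had Sqor levels of 8.85 and 9.65, on either side of replicate 2, and Gadl1 levels of 11.51 and 11.75, both above it; the part of fibre type was not tested.

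Tst was at 10.56, 10.43 and 10.2 with both hormones, 2 arrays within the control range and 1 below it, with a difference of -0.11 ± 0.21 (SE, n = 3 per group; limma adjusted p = 0.946) that was 0.2 under median scaling. Ethe1 stood at 9.06, 9.14 and 8.68. Its difference of -0.03 ± 0.19 (SE, n = 3 per group; limma adjusted p = 0.989) was 0.17 under median scaling. Cdo1 was at 7.63, 8.72 and 8.02, both above and below the controls, with a difference of -0.11 ± 0.34 (SE, n = 3 per group; limma adjusted p = 0.968; 0.03 under median scaling).

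The brighter probe set of the transporter Slc6a6 was at 9.16, 8.77 and 8.42. At -0.52 ± 0.25 (SE, n = 3 per group; 95% interval -1.07 to 0.04, limma adjusted p = 0.83) it had the lowest unadjusted p of the members in this comparison. Median scaling, and leaving out replicate 3 of the combined treatment, each gave -0.33. Mpst was at 10.73, 11.2 and 11.93, with its highest level again in the array of batch C, and a difference of 0.39 ± 0.33 (SE, n = 3 per group; limma adjusted p = 0.9). That difference was 0.06 with batch as a block and without batch C, 0.07 without replicate 3 of the combined treatment, 0.67 without its replicate 1 and 0.72 under median scaling. For Suox, Csad and the dimmer Slc6a6 probe set the differences were 0.17, -0.16 and -0.38.

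Set directly against dexamethasone alone, the contrast that chose the genes, Sqor differed by -2.29 ± 0.27 and Gadl1 by 2.27 ± 0.29 (SE, n = 3 per group). By batch A, B and C the differences were -2.36, -2.77 and -1.74 for Sqor and 2.62, 2.42 and 1.78 for Gadl1. Both genes were chosen on this contrast, so their shared sign over the batches is only a description. In batch B the deposited intensity of Sqor was 893.6 with both hormones and that of Gadl1 was 4707.5. The remaining probe sets had 0.73 for Tst, -0.86 for Cdo1, -0.37 for Ethe1, 0.24 for Mpst, -0.16 for Suox, -0.17 for Csad, and -0.11 and 0.43 for Slc6a6. Arrays did not overlap for 4 of the 10 probe sets, Sqor and Ethe1 (lower) and Gadl1 and Tst (higher). That count includes the genes on which the choice rests and is likewise a description. Over all probe sets tested, 14.6% did not overlap and 0.113% passed in this contrast.

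**Figure D4:**
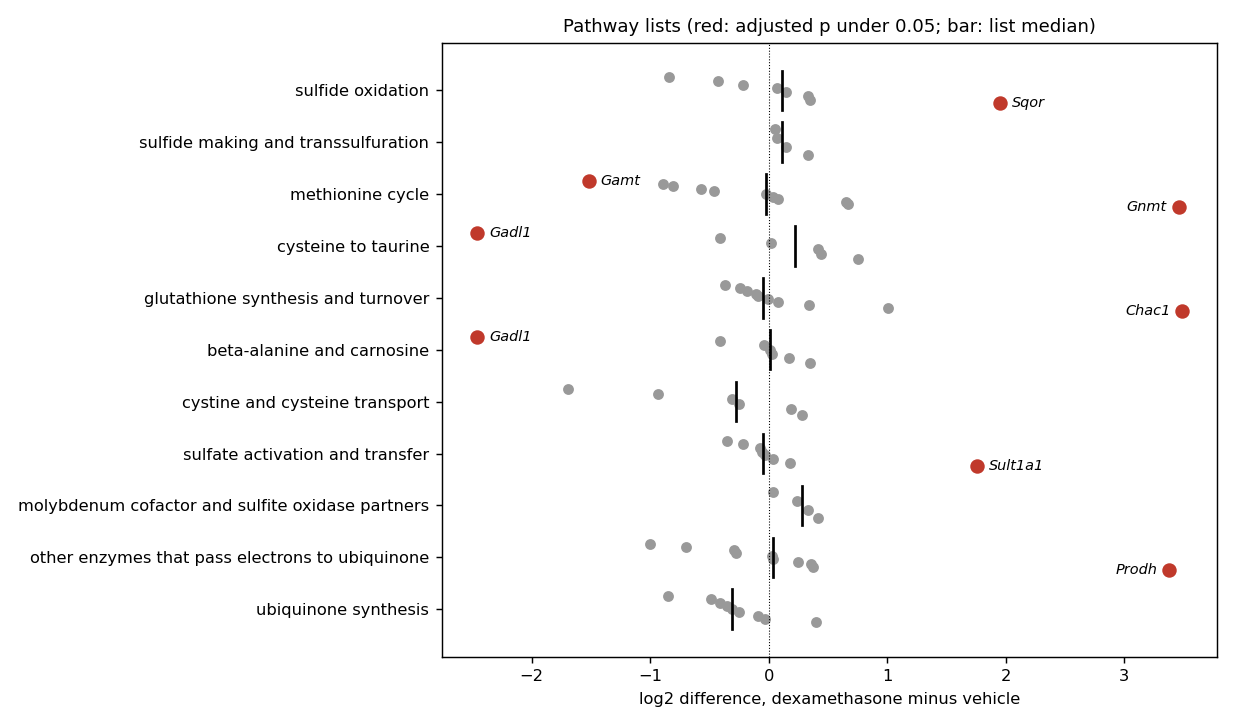
Log2 difference between dexamethasone and vehicle for each measured gene of 11 pathway lists, 3 arrays per group, with red points where the adjusted p is under 0.05 and bars at the list medians. List medians lie between -0.31 and 0.28, and no list has more than 2 red points; the methionine cycle has 2, Gnmt at 3.46 and Gamt at -1.52.

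Around the 9 members, at most 2 genes of any pathway list passed with dexamethasone. Among all 10428 genes tested 0.738% rose and 0.566% fell, and the median difference was 0.04. Of 8 measured genes of sulfide oxidation, Sqor rose and 7 did not pass (median 0.11; -0.13 without batch C). Selenbp1, a methanethiol oxidase that yields sulfide, differed by 0.07 ± 0.28 and the rhodanese-domain genes Tstd2 and Tstd3 by -0.22 ± 0.18 and -0.43 ± 0.38 (SE, n = 3 per group). Of 4 measured genes that make sulfide or the cysteine for it, Cth not among them, none passed (median 0.11). The lowest p there was that of cystathionine beta-synthase Cbs, dim at 6.44, 5.79 and 4.91 with vehicle and 5.65, 6.09 and 6.41 with dexamethasone (0.33 ± 0.4 SE, n = 3 per group, limma adjusted p = 0.741).

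The methionine cycle supplies homocysteine to this route and methyl groups to others. Of its 11 measured genes 1 rose, 1 fell and 9 did not pass (median -0.02). Gnmt, which uses up methyl groups by methylating glycine, was at 4.35, 6.22 and 6.17 with vehicle and 8.86, 9.23 and 9 with dexamethasone. It rose by 3.46 ± 0.44 (SE, n = 3 per group, limma adjusted p = 0.0206). Dim with vehicle, it differed by 2.51 with a pseudocount of 64 and by 4.36 with a pseudocount of 1. With both hormones it was at 6.59, 6.51 and 6.84, between the other groups. Gamt, which makes creatine by the same kind of methyl transfer, was at 9.54, 9.87 and 9.83 with vehicle and 8.32, 8.27 and 8.08 with dexamethasone. It fell by 1.52 on the log2 scale (SE 0.18, n = 3 per group, limma adjusted p = 0.0166) and passed in 13 of 19 alternatives. With both hormones Gamt stood at 9.15, 9.18 and 9.37, below every control and above every dexamethasone array (-0.51 ± 0.18 SE against vehicle).

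Glutathione holds much of the cysteine of a cell, and sulfate is the end product of its sulfur. Of 10 genes of glutathione synthesis and turnover 1 rose and 9 did not pass (median -0.05). It was Chac1, which breaks glutathione down and so frees its parts, at 9.04, 8.67 and 8.23 with vehicle and 12.58, 11.83 and 12.03 with dexamethasone. It rose by 3.49 ± 0.46 (SE, n = 3 per group, limma adjusted p = 0.0206). In the combined treatment Chac1 was at 9.58, 10.83 and 11.52, above every control. Of 8 genes of sulfate activation and transfer 1 rose and 7 did not pass (median -0.04). Sult1a1, a sulfotransferase for phenols, was at 8.76, 8.73 and 9.11 with vehicle and 10.7, 10.98 and 10.21 with dexamethasone. It rose by 1.76 ± 0.27 (SE, n = 3 per group, limma adjusted p = 0.0301) and passed in 9 of 19 alternatives, batch as a block not among them. With both hormones it was at 9.65, 9.9 and 10.4, again above every control.

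Sqor is 1 of several enzymes that pass electrons to ubiquinone. Of 10 others measured 1 rose and 9 did not pass (median 0.03). It was Prodh, the proline dehydrogenase, at 5.31, 4.7 and 5.81 with vehicle, 9.25, 8.77 and 7.94 with dexamethasone and 5.54, 6.98 and 5.71 with both hormones. With dexamethasone it rose by 3.38 ± 0.47 (SE, n = 3 per group, limma adjusted p = 0.0213). Prodh was dim with vehicle as well, and differed by 2.37 with a pseudocount of 64 and by 4.2 with a pseudocount of 1. It gave no value with the filter at the 60th percentile. Gpd2, which feeds electrons from glycerol phosphate, did not pass as reported (-1 ± 0.24 SE, n = 3 per group, limma adjusted p = 0.0896) and was chosen for naming after its value was seen. Without batch C it fell by 1.25 (limma adjusted p = 0.0208). Gpd2 also passed without dexamethasone replicate 3, with robust variances that follow intensity, with the filter at the 60th percentile and with a pseudocount of 64 (limma adjusted p of 0.0199 to 0.049). With batch as a block it did not pass. Of 9 genes of ubiquinone synthesis 8 were below 0 and none passed (median -0.31), the lowest p being that of Coq5, a methyltransferase of the pathway (-0.85 ± 0.38 SE, n = 3 per group, limma adjusted p = 0.33). The calls of Gamt, Chac1, Sult1a1 and Prodh were lost on leaving out vehicle replicate 1, 2 or 3 or dexamethasone replicate 1 or 2 (limma adjusted p of 0.0539 to 0.124), and that of Gnmt on leaving out any of these but vehicle replicate 1 (0.0602 to 0.0952) or with a pseudocount of 1 (0.0671), with no change of sign. Sult1a1 also missed the threshold with a pseudocount of 1 (0.0524), with no filter (0.0614) and with batch as a block (0.0546). Leaving out replicate 2 of the combined treatment also lost Sult1a1 (0.0581).

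The lists around taurine and beta-alanine held no call but Gadl1. Of 6 genes from cysteine to taurine 1 fell and 5 did not pass (median 0.22), and Ado, which makes hypotaurine from cysteamine, differed by 0.42 ± 0.27 (SE, n = 3 per group). Of 12 listed genes of beta-alanine and carnosine 7 were measured, of which 1 fell and 6 did not pass (median 0.01). Carns1, Carnmt1, Upb1, Dpys and Slc36a1 were not among the genes tested. Dipeptidase genes Cndp1 and Cndp2 differed by 0.03 ± 0.29 and 0.35 ± 0.19, and Abat, which breaks beta-alanine down, by -0.04 ± 0.28 (SE, n = 3 per group). None passed among 6 genes of cystine and cysteine transport (median -0.28). Slc1a5, a neutral amino acid carrier, had the lowest p there (-0.93 ± 0.48 SE, n = 3 per group, limma adjusted p = 0.394). Slc7a11, Slc7a9 and Slc1a4 of that list were not among the genes tested. None passed among 4 genes of the molybdenum cofactor that Suox needs, Suox included (median 0.28), where Mocs2 had the lowest p (0.42 ± 0.3 SE, n = 3 per group, limma adjusted p = 0.552).

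With both hormones no gene of any of the 11 lists passed against vehicle, and list medians ran from -0.44 to 0.12, against 0.04 for all genes. The lowest unadjusted p of the lists' genes was that of Chac1 (2 ± 0.46 SE, n = 3 per group, limma adjusted p = 0.793), followed by Sult1a1 (1.12 ± 0.27 SE, limma adjusted p = 0.802). Nnmt, which methylates nicotinamide, had the same difference from vehicle with dexamethasone alone and with both hormones (-0.81 ± 0.23 SE in each, n = 3 per group), with limma adjusted p of 0.132 and 0.802. Selenbp1 had -0.59 ± 0.28, Cbs 0.75 ± 0.4, Slc38a2 -0.44 ± 0.24, Mocs2 0.45 ± 0.3, Sdhb -0.39 ± 0.21 and Coq6 -0.33 ± 0.21 (SE, n = 3 per group), all with adjusted p of 0.83 or more.

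**Figure D5:**
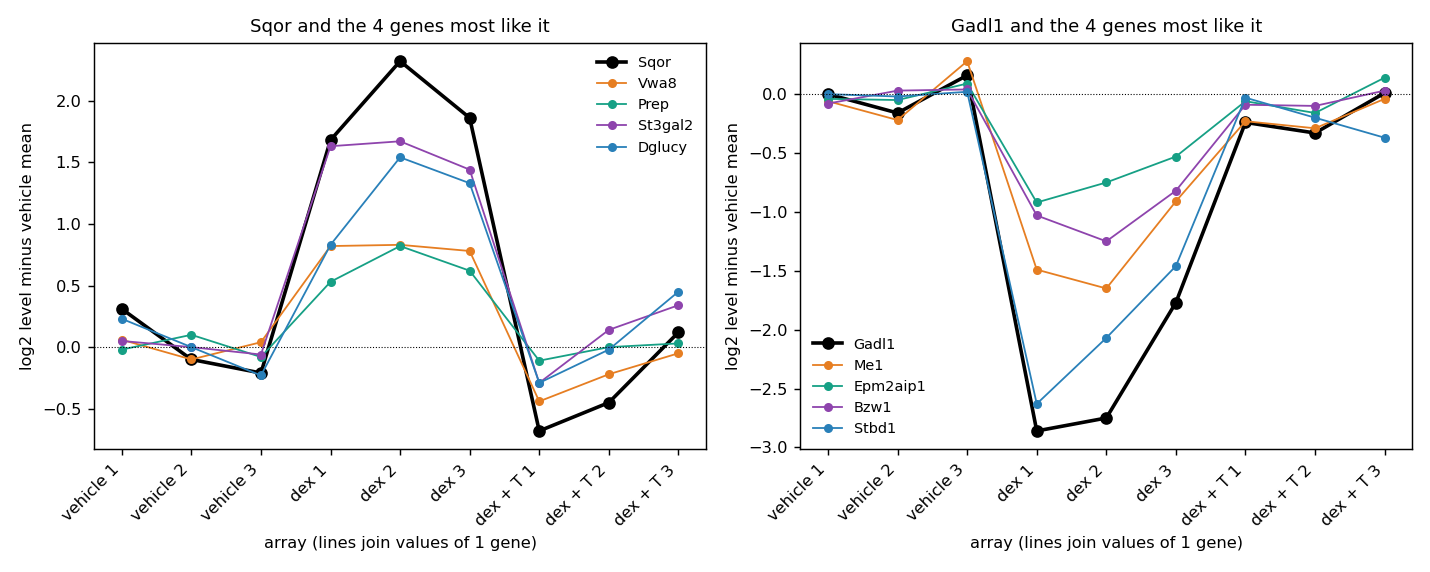
Log2 level minus the vehicle mean in each of the 9 arrays for Sqor (left) and Gadl1 (right), in black, with the 4 genes of highest correlation in colour; lines join the values of 1 gene. Sqor stands 1.68 to 2.32 above the vehicle mean in the dexamethasone arrays and Gadl1 at -2.86 to -1.77, and the group means of their companions move less.

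Genes most like the leading members were ranked by Pearson correlation over the 9 arrays, which share their groups and batches, so the values are a description. For Sqor they were Vwa8, a mitochondrial ATPase-domain protein (0.978), the peptidase gene Prep (0.97), the sialyltransferase gene St3gal2 (0.969) and the mitochondrial D-glutamate cyclase Dglucy (0.967). Of these St3gal2 rose with dexamethasone (1.58 ± 0.2 SE, n = 3 per group, limma adjusted p = 0.0206), and the others, at 0.66 to 1.23, did not pass. For Gadl1 they were cytosolic malic enzyme Me1 (0.986), Epm2aip1 (0.986), Bzw1 (0.985) and Stbd1, a glycogen-binding protein (0.982). Stbd1 fell by 2.05 (SE 0.28), Me1 fell by 1.35 (SE 0.24) and Bzw1 fell by 1.03 (SE 0.18; n = 3 per group, limma adjusted p of 0.0213, 0.0384 and 0.0367), while Epm2aip1 at -0.73 ± 0.18 did not pass. Those 8 genes were chosen for likeness over these same arrays, so their differences and adjusted p with dexamethasone are no independent test. With both hormones they differed from vehicle by -0.24 to 0.06. The ranking used those arrays too, so that range follows from the choice and is a description.

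For Cdo1 the genes of highest correlation were Nfe2l1 (0.954), Abra (0.949), Slc20a2 (0.949) and S100a9 (0.947), and for Slc6a6 Numa1 (0.936), Vegfa (0.929), Slc25a39 (0.927) and P2ry1 (0.925). None of these 8 passed with dexamethasone. Nfe2l1, a transcription factor gene, differed by 0.29 ± 0.17 and the vascular growth factor gene Vegfa by -0.52 ± 0.28 (SE, n = 3 per group).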

How the data were processed

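The deposited values are the authors' linear signal intensities, 1 per probe set and array; the signal algorithm is not given in the sources used here. Of 31099 probe sets, 57 controls were left out. Array medians spanned 1.82 on the log2 scale, so log2(intensity + 16) was brought to common quantiles (limma 3.58.1, R 4.3.3). Only probe sets whose mean reached the 40th percentile were tested; all 10 of the members did. A mean per group was fitted by limma (lmFit, eBayes) over all 9 arrays, with Benjamini-Hochberg adjustment over 18625 probe sets. A gene in a list is its probe set of highest mean. Symbols came from the platform annotation, updated by gene ID to GRCr8.

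The members, the lists and the rule for named genes (all members, the list genes past the threshold or else that of lowest p, and the 4 genes most correlated with each of 4 members) were chosen with earlier results of these data known. Tstd2, Tstd3, Ado, Cndp1, Cndp2, Abat and Gpd2, and Selenbp1 with dexamethasone alone, fall outside that rule and were named after their values were seen. Alternatives refitted the data with arrays renormalized. Batches were set by the trimmed mean and the Gapdh ratio. The labels do not say that replicate numbers pair animals. The fit has no batch term, so p-values measure the spread between arrays within groups. That spread mixes differences of animal, batch and RNA quality, and the number of arrays limits the precision.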

Additional observations from a re-analysis of the deposited data

How the results depend on the processing

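Over 19 alternatives, Sqor and Gadl1 kept their direction with dexamethasone, and member calls were 2 except 1 with the replicate block (Sqor at adjusted p = 0.0578), 3 with trend and robust variance, and 0 to 2 when 1 array was left out. No member passed with both hormones in any.

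All probe sets past the threshold with dexamethasone, 196 as reported, were 54 and 414 with pseudocounts of 1 and 64, 48 with no filter, 469 with the filter at the 60th percentile, 510 with trend and robust variance, 123 with only the compared groups, 13 with the replicate block, 460 without batch C and 1 to 340 with 1 array left out. For both hormones against dexamethasone, 21 as reported, the counts in that order were 5, 102, 0, 83, 149, 0, 0, 39 and 0 to 67, and 3 under median scaling; limma fits at 0 had 2698, 1573 and 2298 probe sets at an unadjusted p under 0.05. Deviations of same-numbered arrays from their group means had correlations over 0.1 in 5 of 9 pairs (-0.2 to 0.59). For arrays of different number this held in 4 of 18 pairs (-0.54 to 0.35). The highest value, 0.59, was between both arrays of batch C. Same-numbered arrays shared a batch, except vehicle replicate 3 with the arrays of batch C. Number and batch can therefore hardly be told apart here. The labels state no pairing, so the main fit took none, and whether the numbers pair animals was not tested. With the replicate block Gamt, Chac1 and Prodh were also past the threshold no longer (adjusted p = 0.0578 each), nor was Sult1a1 (0.0595). The cause of these shifts was not tested.

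Signs turned for values near 0. With dexamethasone, Mpst was -0.18 and Csad -0.02 with the batch block, and -0.12 and -0.05 without batch C; with 1 array left out they ran from -0.12 to 0.3 and from -0.2 to 0.23. With both hormones, median scaling gave 0.17 for Ethe1, 0.2 for Tst, 0.03 for Cdo1 and 0.18 for Gadl1, the batch block 0.03 for Ethe1 and Cdo1, and the fit without batch C 0.11 for Ethe1 and 0.28 for the dimmer Slc6a6 probe set. With 1 array left out, ranges that crossed 0 were -0.13 to 0.11 (Ethe1), -0.24 to 0.07 (Tst), -0.41 to 0.14 (Cdo1), -0.37 to 0.05 (Csad), -0.1 to 0.35 (Suox) and -0.82 to 0.29 (dimmer Slc6a6). The dimmer Slc6a6 probe set gave no value with the filter at the 60th percentile.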
